A study of Mus musculus with 16 samples.

Results

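Basal keratinocytes sorted from mouse tail skin, from the interfollicular epidermis (IFE) that lies between the hair follicles, were compared 1 week after SmoM2 was switched on with the same kind of cells from untreated mice. SmoM2 is a constitutively active form of Smoothened, the membrane protein that passes on the hedgehog signal, and it is used to model basal cell carcinoma. The comparison takes the 3 arrays labelled SmoM2 at 1 week and the 3 arrays labelled IFE without tamoxifen, chosen by their titles, 6 of the 16 arrays in the series. Both groups came from K14CREER/Rosa-SmoM2-YFP mice of mixed background, so the controls carry the same silent SmoM2-YFP allele and the same keratin 14 driven, tamoxifen-dependent Cre. The 1-week cells were sorted as SmoM2-positive after tamoxifen, and the control cells were sorted from mice given no tamoxifen. SmoM2 expression, tamoxifen and selection for recombined cells therefore cannot be told apart here. RNA was labelled from its 3' end and hybridised to Affymetrix mouse expression arrays, and every level below is the deposited log2 signal of 1 probe set per gene. The labels give the arrays an experiment number. Whether a replicate is 1 mouse or several is not stated, and p-values therefore cover only a spread among arrays, which may be partly technical. In the main fit (limma) that spread was pooled over all 14 IFE arrays of the series, not taken from the 6 arrays alone. The 14 also hold SmoM2 cells at 3 days, 4 weeks and 10 weeks, and SmoM2 cells with beta-catenin loss of function at 4 weeks. Unless stated otherwise, each SE below comes from that pooled spread.

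Hedgehog ligands bind Patched1, which otherwise holds Smoothened inactive. Once released, Smoothened acts through the primary cilium and the inhibitor Sufu on the Gli transcription factors, and Gli1, Ptch1 and Hhip are transcribed in return, so that their RNAs serve as readouts of the pathway. SmoM2 acts below Patched1 and needs no ligand. In normal skin the pathway works in hair follicle growth, and most basal cell carcinomas of human skin carry mutations that activate it.

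The arrays of the 1-week group did not lie together. The first principal component was taken over the 14 IFE arrays and held 30.3% of the variance. On it, 1-week replicates 1, 2 and 3 lay at -1.55, 36.9 and -30.6, against -30.0, -28.9 and -37.7 in control replicates 1, 2 and 3. Replicate 3 of the 1-week group thus lay among the controls. The 3 Y-linked genes averaged 8.26, 3.34 and 7.38 in 1-week replicates 1, 2 and 3 and 3.41, 8.18 and 3.43 in the control arrays, so sex was not balanced between the groups. A fit with that signal as a covariate also called 0 genes. Xist, an RNA of female cells, was 5.96, 12.97 and 9.84 in 1-week replicates 1, 2 and 3 and 11.11, 7.82 and 11.37 in the control arrays. In 1-week replicate 3 a Y-linked mean of 7.38 thus stood beside an Xist signal of 9.84. Whether that array holds RNA of both sexes, and so of several mice, was not tested. Array medians were 5.4 to 5.5 in both groups.

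No gene reached an adjusted p under 0.05 in the limma test of the 2 groups, with Benjamini-Hochberg adjustment over 14286 genes (0 genes, 0%). At an unadjusted p under 0.05 there were 677 genes (4.74%), 441 of them higher at 1 week (3.09%) and 236 lower (1.65%). The lowest adjusted p, 0.0720, was shared by 7 genes, all higher at 1 week, namely Akap2, Fam110b, Gli1, Gli2, Lap3, Ptch1 and Scnn1g. Arrays of the same experiment number deviated together from their group means, and with that number as a replicate block, over the control, 1-week and 4-week arrays, limma called 9 genes (0.063%), all higher at 1 week. These were Gli1, Gli2, Ptch1, Dcn, Cpxm1, Slco4a1, Scarb1, Scnn1g and Sftpc. With the same block over the 6 arrays alone limma called 0 genes, and with the number as a random replicate block it called 11, of which Gli1, Gli2, Ptch1, Scarb1 and Scnn1g were among the 9. Without 1-week replicate 3 and without the block, limma called 50 genes, 42 higher and 8 lower, of which 4 were among the 9. Without control replicate 3 it called 1 gene, Stk33, which was lower at 1 week. Without 1-week replicate 1 or 2, or without control replicate 1 or 2, it called 0 genes. Adjusted p-values given below without 1-week replicate 3 come from that 1 omission, of the 1-week array nearest to the controls.

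By levels alone, the 3 arrays of the 1-week group lay above all 3 control arrays in 662 genes (4.63%) and below them in 406 (2.84%). With a difference of means of at least 2-fold added, 218 genes were higher (1.53%) and 42 were lower (0.294%). Over all genes tested 7018 had a positive difference (49.1%), so that signs alone were near balance. Of the 218 higher genes, 1-week replicate 3 was the array closest to the controls in 162 (74.3%), and of the 42 lower genes in 32 (76.2%). Its median distance from the control mean was 0.90 over the higher genes, against 1.60 and 1.90 in 1-week replicates 1 and 2. Each pair of equal number gave its own count of genes at least 2-fold apart. Pair 1 had 385 higher and 136 lower, pair 2 had 702 and 515, and pair 3 had 211 and 194.

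**Figure D1:**
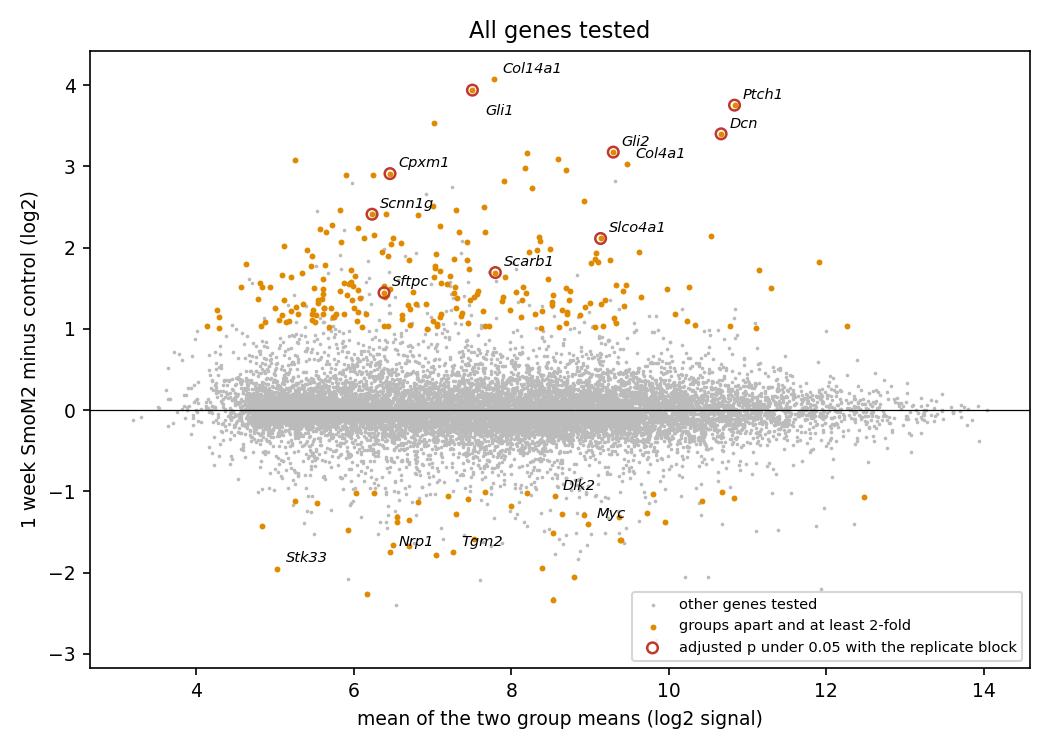
Difference of group means (log2, 1 week SmoM2 minus control) against the mean of both group means (log2 signal) for the 14286 genes tested. Orange points are the 218 higher and 42 lower genes whose groups do not overlap and differ at least 2-fold, and red rings mark the 9 genes called with the replicate block, which all lie above 0.

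Gli1, the transcription factor that serves as the standard readout of the pathway, was 15.3-fold higher at 1 week. Its signal was 9.77, 10.16 and 8.50 in 1-week replicates 1, 2 and 3, against 5.73, 5.58 and 5.30 in control replicates 1, 2 and 3. The difference was 3.94 ± 0.54 (SE, n = 3 each) on the log2 scale, with a limma adjusted p of 0.0720, and of 0.00735 with the replicate block. All 3 pairs went the same way, by 4.03, 4.58 and 3.21, and 1-week replicate 3 was the lowest of its group. Without that array the difference was 4.43 and the adjusted p 0.0131.

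Ptch1, which encodes the hedgehog receptor and inhibitor of Smoothened, had signals of 13.38, 12.95 and 11.81 at 1 week and of 9.10, 8.66 and 9.11 in control cells. The groups did not overlap, and the 1-week arrays were 13.5-fold higher on average (3.75 ± 0.47, SE, n = 3 each; adjusted p 0.0720, limma, and 0.0171 with the replicate block). Of its 3 probe sets, each was higher at 1 week, by 0.77 to 3.75. Without 1-week replicate 3 the difference was 4.21, with an adjusted p of 0.00608. Gli2, the main activating Gli factor downstream of Smoothened, was 11.35, 11.24 and 10.06 at 1 week and 8.10, 7.80 and 7.22 in control cells. It was 9.04-fold higher (3.18 ± 0.49; adjusted p 0.0720, limma, and 0.00735 with the replicate block), and both of its probe sets separated the groups.

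The promoter of Ptch1 is shown because this gene carries the pathway's feedback and was among the 9 genes called. The window runs from 250 bases before to 50 after the annotated start of transcription (RefSeq, GRCm38.p6, chr13:63565686-63565985, minus strand).
Ptch1: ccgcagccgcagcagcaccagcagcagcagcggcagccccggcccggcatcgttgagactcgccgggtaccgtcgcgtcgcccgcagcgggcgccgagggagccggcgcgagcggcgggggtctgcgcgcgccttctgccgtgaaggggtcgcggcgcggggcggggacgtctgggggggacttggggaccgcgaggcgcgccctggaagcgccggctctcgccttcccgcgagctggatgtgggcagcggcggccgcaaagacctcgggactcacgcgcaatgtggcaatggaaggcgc
It holds no capitals because the motif searched, the 9 bases GACCACCCA known as the Gli consensus, was found on neither strand. Of the 15 genes of the target list, 7 had a window of this kind and 0 of them held the motif, against 83 of 32851 windows (0.253%) in the whole table. This says only that those letters are not in these windows.

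The list of hedgehog feedback and target genes had 14 of its 15 members tested. At 1 week 10 were higher and 4 lower, with a median difference of 0.34 beside -0.0044 over all genes tested. That median was 0.11 without 1-week replicate 2, 0.20 without control replicate 2, 0.60 with a signal filter in all 3 arrays of a group and 0.056 with every probe set tested. Leaving out 1 array moved the median by over 1.5 times or turned its sign in 24 of the 28 lists described here, the other 4 being the transducer, placode, matrix and cell cycle inhibitor lists. In 4 members of the target list the 1-week arrays lay above all control arrays (Gli1, Ptch1, Mycn and Hsd11b2), and in 1 below them (Igfbp3), beside 4.63% and 2.84% of all genes tested. Only Gli1 and Ptch1 of the 14 were called with the block. Mycn, a proto-oncogene of the Myc family and a known hedgehog target in cerebellar precursors, was 10.81, 10.76 and 7.78 at 1 week against 7.23, 6.07 and 6.56 in control cells. Replicate 3 was much nearer to the controls than replicates 1 and 2, and the difference of 3.16 ± 0.94 had an adjusted p of 0.539. The other Mycn probe sets differed by 0.89, with the groups apart, and by -0.0046, with overlap. The last had a mean signal of 6.62 at 1 week and 6.63 in control cells. Hhip, a membrane decoy that binds hedgehog ligands, overlapped between the groups, with 7.85, 10.37 and 7.0 at 1 week and 6.78, 5.09 and 7.12 in control cells. Its difference of 2.08 ± 1.01 came mainly from pair 2 and had an adjusted p of 1.00. All 4 Hhip probe sets were higher at 1 week, by 1.44 to 2.09, and 1 of the 4 separated the groups.

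Other targets differed less. Bcl2, which blocks apoptosis, was 9.58, 8.81 and 8.51 at 1 week against 8.52, 7.54 and 8.10 in control cells, with an overlap of the lowest 1-week and the highest control array. Hsd11b2, which inactivates glucocorticoids, was 5.85, 5.51 and 6.31 against 5.38, 5.25 and 4.93 in control cells (0.70 ± 0.29). Igfbp3, an insulin-like growth factor binding protein, went the other way in each pair, with 8.61, 8.08 and 9.09 at 1 week and 10.06, 9.50 and 11.004 in control cells. Its difference was -1.59 ± 0.60 (adjusted p 0.797). The cyclins Ccnd1 and Ccnd2 differed by -0.01 and -0.41, the Wnt inhibitor Sfrp1 by -0.73 and the forkhead factor Foxc1 by 0.60, all with overlapping groups. Cdk6, Foxf1 and Foxl1 differed by 0.08 or less.

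Among the 14 transducers and co-receptors 10 were higher and 4 lower, with a median difference of 0.39. Of the 14, 5 lay apart above and 1 below the controls, beside 4.63% and 2.84% of all genes tested. Besides Gli2 the 5 were Kif7, Smo, Gas1 and Stk36. Kif7, a kinesin of the primary cilium that organises Gli proteins at its tip, was 7.92, 8.84 and 7.78 at 1 week against 6.70, 7.58 and 7.16 in control cells (1.03 ± 0.33, adjusted p 0.592). Smo itself was 10.62, 11.06 and 10.06 against 9.80, 9.80 and 10.01 in control cells, so that 1-week replicate 3 was nearly level with the highest control array. Of its other probe sets, one differed by 0.71 with overlapping groups, and one by -0.02 at a mean signal of 3.59 at 1 week and 3.61 in control cells. Whether any of them reads the SmoM2 transgene was not tested. The co-receptor Gas1 differed by 0.46. The kinase-like protein Stk36 differed by 0.36, but was below the 40th percentile of signal on all 6 arrays. Scube2, which helps release ligand, was the gene below the controls (-0.44 ± 0.18).

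The remaining transducers overlapped between the groups. The ciliary proteins Evc and Evc2 differed by 0.67 and 0.48, the co-receptor Boc by 0.42, the inhibitor Sufu by 0.24, the inhibitory receptor Gpr161 by 0.25, the repressor-forming factor Gli3 by -0.09, the ubiquitin ligase adaptor Spop by -0.19 and the co-receptor Cdon by -0.31. The ligand gene Shh was 6.11, 5.43 and 4.94 at 1 week and 6.20, 5.42 and 5.32 in control cells. The 4 tested genes of ligand production and release had a median difference of 0.03 and none separated the groups.

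**Figure D2:**
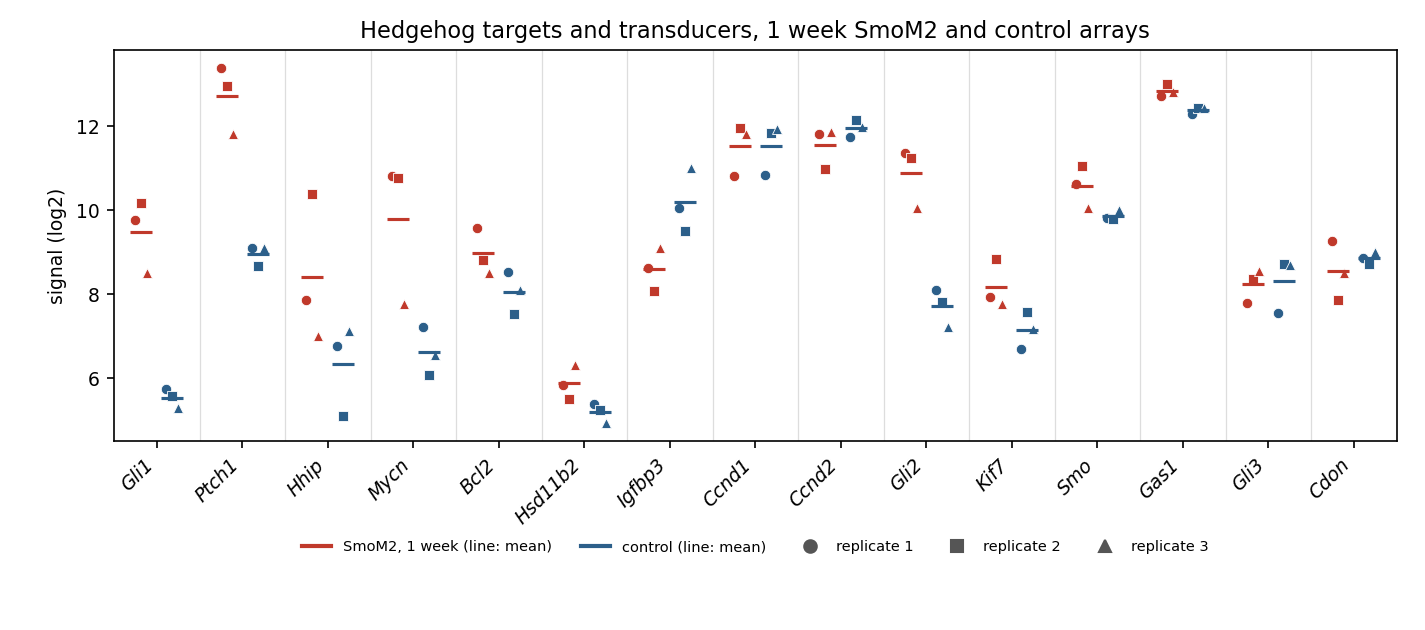
Signal (log2) of 15 hedgehog target and transducer genes in each of the 3 arrays of 1 week SmoM2 (red, left) and of control (blue, right), with a line at each group mean. Gli1, Ptch1 and Gli2 separate the groups by over 2 log2 units in every pair, and the red triangle, 1-week replicate 3, is the lowest red point in each of Gli1, Ptch1, Hhip, Mycn, Bcl2, Gli2, Kif7 and Smo.

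The other 6 genes called with the block are not members of the hedgehog lists. Of these, Scarb1 and Scnn1g were also called with the random block, while Dcn, Cpxm1, Slco4a1 and Sftpc were not, and none was called with the block over the 6 arrays alone. Dcn encodes decorin, a small proteoglycan that binds collagen fibrils and growth factors. Its signal was 12.98, 11.95 and 12.17 at 1 week and 9.002, 8.67 and 9.22 in control cells, 10.6-fold apart (3.40 ± 0.61; adjusted p 0.168, limma, and 0.0171 with the replicate block). Its second probe set was higher by 0.74. Cpxm1, a secreted member of the carboxypeptidase family, was 8.02, 8.35 and 7.39 against 4.96, 4.98 and 5.07 in control cells (2.91 ± 0.56; adjusted p 0.178, limma, and 0.0115 with the replicate block). The 3 control arrays lay close to each other and to the 40th percentile of the array.

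Scnn1g, a subunit of the epithelial sodium channel, had the same shape, with 8.05, 7.39 and 6.88 at 1 week against 4.98, 5.04 and 5.05 in control cells (2.41 ± 0.34; adjusted p 0.0720, limma, and 0.0247 with the replicate block). Slco4a1, an organic anion transporter, was 10.64, 10.25 and 9.68 at 1 week and 8.42, 8.0 and 7.82 in control cells, with pair differences of 2.23, 2.25 and 1.87 (adjusted p 0.186, limma, and 0.0171 with the replicate block). Scarb1, the receptor that takes up cholesterol from high-density lipoprotein, was 9.03, 8.52 and 8.39 against 7.66, 6.55 and 6.64 in control cells (1.69 ± 0.32; adjusted p 0.176, limma, and 0.0223 with the replicate block). All 3 genes separated the groups in every array. Sftpc, known as the surfactant protein C of the lung, was 7.91, 6.85 and 6.56 at 1 week and 6.33, 5.48 and 5.18 in control cells. Its pairs differed by 1.59, 1.37 and 1.38 and its adjusted p was 0.437 in limma and 0.0171 with the replicate block. Its second probe set differed by -0.11, at a low mean signal of 3.99 at 1 week and 4.09 in control cells.

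Matrix genes of epithelia had the highest median of the lists examined apart from the Y-linked one, 1.25 over 17 genes. Of these, 8 lay apart above the controls and were at least 2-fold higher at 1 week, 1 lay apart below them, and none was called with or without the block. Over all genes tested 1.53% lay apart above and were at least 2-fold higher, and 2.84% lay apart below. The pair medians were 1.12, 1.44 and 0.48, and the median without 1-week replicate 3 was 1.54. Col14a1, a fibril-associated collagen, had the largest difference of all genes tested, with 8.90, 11.50 and 9.05 at 1 week and 6.27, 5.36 and 5.58 in control cells (4.08 ± 1.00, adjusted p 0.345). Replicate 2 stood far above the others of the 1-week group, and the other probe sets differed by 2.92, with the groups apart, and by 0.48, with overlap, the last at a mean signal of 4.58 at 1 week and 4.10 in control cells. Col27a1, a fibrillar collagen known from cartilage, was 10.48, 11.75 and 8.18 against 6.80, 7.67 and 6.67 in control cells (3.09 ± 0.81, adjusted p 0.406, and 0.0369 without 1-week replicate 3).

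Col4a1 and Col4a2 encode the chains of type IV collagen, the network collagen of basement membranes. Col4a1 was 11.48, 11.72 and 9.75 at 1 week and 8.70, 7.79 and 7.36 in control cells (3.03 ± 0.64, adjusted p 0.280). Col4a2 was 9.96, 10.45 and 8.51 at 1 week and 7.52, 6.85 and 6.33 in control cells (2.74 ± 0.57, adjusted p 0.253). The order of the arrays was the same for both genes within each group, and pair by pair they differed by 2.78, 3.93 and 2.39 for Col4a1 and by 2.44, 3.60 and 2.18 for Col4a2. Without 1-week replicate 3 the adjusted p was 0.0403 for Col4a1 and 0.0369 for Col4a2. Each was called in only 1 of the 20 alternatives, and over these the limma adjusted p reached 0.9995 for Col4a1 and 0.959 for Col4a2.

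The promoters of these collagen genes are shown because the genes lie head to head and differed alike, a pair chosen after its values were seen. The annotated starts, at 11312826 for Col4a1 and 11312805 for Col4a2 on chromosome 8, are 21 bases apart. These bases are no gap between the genes, because on these strands each annotated transcript runs through the start of the other. Both windows come from RefSeq on GRCm38.p6, Col4a1 at chr8:11312777-11313076 on the minus strand and Col4a2 at chr8:11312555-11312854 on the plus strand, and the capitals mark the 78 bases that both windows hold on opposite strands.
Col4a1: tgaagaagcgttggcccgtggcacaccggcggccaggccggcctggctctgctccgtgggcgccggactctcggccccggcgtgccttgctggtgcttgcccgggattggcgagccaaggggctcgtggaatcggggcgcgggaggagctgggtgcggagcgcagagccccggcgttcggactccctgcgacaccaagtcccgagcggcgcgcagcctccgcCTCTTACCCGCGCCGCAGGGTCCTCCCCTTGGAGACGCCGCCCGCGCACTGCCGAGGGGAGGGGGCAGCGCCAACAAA
Col4a2: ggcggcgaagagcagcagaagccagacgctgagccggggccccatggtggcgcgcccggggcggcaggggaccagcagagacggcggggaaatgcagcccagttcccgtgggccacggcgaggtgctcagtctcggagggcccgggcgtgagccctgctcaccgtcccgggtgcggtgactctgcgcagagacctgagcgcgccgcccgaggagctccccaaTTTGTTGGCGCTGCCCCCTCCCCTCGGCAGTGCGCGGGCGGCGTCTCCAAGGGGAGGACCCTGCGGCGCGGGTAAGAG
Neither window holds the motif GACCACCCA on either strand.

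The other matrix genes apart above the controls were Vcan, Bgn, Tnc and Fn1. Versican (Vcan), a large proteoglycan, was 8.98, 10.37 and 8.61 at 1 week against 7.39, 7.31 and 4.80 in control cells. Biglycan (Bgn), a small proteoglycan related to decorin, was 9.48, 10.76 and 9.75 against 8.73, 7.16 and 8.51 in control cells. Tenascin C (Tnc) differed by 1.54 and fibronectin (Fn1) by 1.44, with Fn1 at 8.76, 7.44 and 7.76 at 1 week and 6.24, 6.997 and 6.41 in control cells. The list did not move as a whole. Fras1, which anchors embryonic epidermis to its basement membrane, was 7.02, 6.13 and 9.09 at 1 week against 9.13, 9.85 and 9.09 in control cells, where 1-week replicate 3 was level with the lowest control array. Sparc, a matrix glycoprotein that binds collagen, was 9.61, 8.85 and 11.48 at 1 week and 10.39, 12.08 and 11.67 in control cells.

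**Figure D3:**
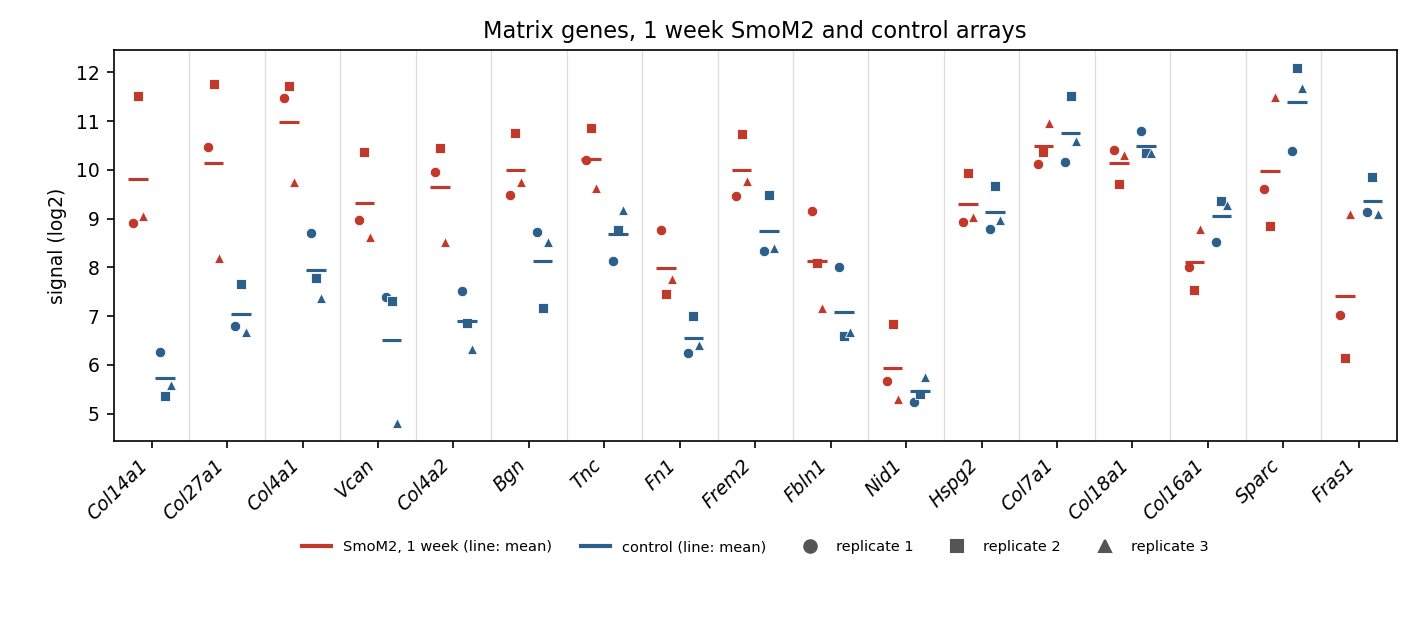
Signal (log2) of the 17 matrix genes in each array of 1 week SmoM2 (red, left) and of control (blue, right), with a line at each group mean, ordered by the difference of means. Genes from Col14a1 to Fn1 separate the groups with the 1-week arrays above, and Sparc and Fras1 have their 1-week means below those of control.

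Several collagens and Dcn are also products of dermal fibroblasts, so fibroblast markers were set beside them. Of 14 fibroblast genes tested, 9 were higher and 5 lower, with a median difference of 0.34 (0.61 without 1-week replicate 3). Dcn and Col5a1 lay apart above and Thy1 below the controls, beside 4.63% and 2.84% of all genes tested. Summed fibroblast signal on the log2 scale was 12.48 to 13.28 in the 1-week arrays and 10.59 to 10.93 in the control arrays, a sum that Dcn dominates. Col1a1, Lum and Dpt, 3 of the 15 list genes measured, were below the 40th percentile on all 6 arrays. Pdgfra, the receptor that marks dermal fibroblasts, was 4.83, 5.02 and 4.68 at 1 week and 4.79, 5.33 and 4.66 in control cells, and Col3a1 was 5.26, 3.90 and 4.79 against 5.10, 5.36 and 4.33 in control cells. Col1a2 was higher in each pair, at 7.39, 7.78 and 6.29 against 6.11, 6.69 and 5.70 in control cells (0.99 ± 0.48). Its other probe sets differed by 1.47 and 0.09, and Col5a2 differed by 1.29, all with overlapping groups. Col5a1, a chain of type V collagen, was 8.61, 8.29 and 7.56 at 1 week and 7.14, 6.81 and 6.44 in control cells (1.36 ± 0.30; adjusted p 0.333, limma, and 0.0534 with the replicate block). In bulk samples such as these, a change in the number of cells of a type and a change in RNA per cell cannot be told apart.

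Hair placode and germ genes, which build the follicle in the embryo, had the next highest median, 0.68 over 18 genes, with 13 higher and 5 lower, 6 apart above the controls and 0 below, beside 4.63% and 2.84% of all genes tested. No member was called. The pair medians were 0.54, 1.11 and 0.15. Lhx2, a LIM homeobox factor of early follicle progenitors, was 9.22, 11.97 and 9.32 at 1 week and 7.12, 6.86 and 7.65 in control cells (2.96 ± 0.68, adjusted p 0.339). Replicate 2 of the 1-week group stood far above the others of its group. Sox4, an SRY-box factor, was 11.47, 12.78 and 11.77 against 9.81, 10.36 and 10.69 in control cells (1.72 ± 0.34, adjusted p 0.209), and 5 of its 8 probe sets separated the groups.

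Keratin 17 (Krt17), a keratin of follicles and of basal cell carcinoma, was 13.33, 13.23 and 11.91 at 1 week and 11.58, 10.63 and 10.80 in control cells (1.82 ± 0.40, adjusted p 0.333, and 0.0320 without 1-week replicate 3). The chemokine receptor Cxcr4 was 5.84, 6.27 and 4.30 against 4.09, 4.01 and 4.18 in control cells, so that replicate 3 lay only just above the controls. Sostdc1, a secreted BMP and Wnt antagonist, differed by 0.97 and the homeobox factor Cux1 by 0.61. Sox9, a factor of follicle stem cells, overlapped between the groups, with 8.48, 10.32 and 8.38 at 1 week and 7.72, 8.20 and 8.82 in control cells. Hoxc13, which drives hair keratin genes, was lower in pairs 1 and 2 and close to level in pair 3 (difference of means -0.81).

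Bulge stem cell genes, the markers of the resting follicle, had a median difference of 0.32 over 15 genes. Tcf7l1 and Krt19 lay apart above the controls and Aspn below, beside 4.63% and 2.84% of all genes tested. Tcf7l1, a Wnt-pathway repressor, was 8.03, 8.37 and 8.04 at 1 week and 7.63, 7.35 and 7.30 in control cells (0.72 ± 0.20, adjusted p 0.445). Krt19 was 4.83, 4.75 and 6.03 against 4.54, 4.70 and 4.71 in control cells. Cd34, the surface marker of the bulge, was 3.70, 3.88 and 5.63 at 1 week and 3.80, 3.78 and 4.15 in control cells, at the low end of the signal except in 1-week replicate 3. Aspn, a small matrix proteoglycan, was 4.11, 6.85 and 4.16 against 7.19, 7.42 and 7.30 in control cells, with a SE of 1.25 on a difference of -2.26.

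Wnt/beta-catenin target genes went both ways, 7 of 12 higher and 5 lower, with a median difference of 0.15. Of the 12, 2 lay apart above the controls and 2 below, beside 4.63% and 2.84% of all genes tested. Lgr5, a receptor for R-spondins that marks follicle stem cells, was 7.59, 10.82 and 8.30 at 1 week and 6.13, 6.30 and 6.78 in control cells. Lef1, the factor that beta-catenin binds in the hair germ, was 6.84, 7.33 and 6.69 against 5.81, 6.06 and 5.89 in control cells (1.03 ± 0.19, adjusted p 0.168, and 0.0431 without 1-week replicate 3). Both separated the groups. Axin2, the general feedback target of the pathway, differed by -0.37 with overlap. Myc and Ascl2 were below the controls in every array. Myc, a driver of growth and of keratinocyte differentiation, was 8.12, 7.74 and 8.95 at 1 week and 9.43, 9.85 and 9.75 in control cells (-1.40 ± 0.41, adjusted p 0.523). In all 3 pairs it went opposite in direction to its relative Mycn, as read by the Mycn probe set used. Ascl2, a basic helix-loop-helix factor, was 6.76, 6.24 and 7.72 against 7.97, 7.93 and 8.12 in control cells (-1.10 ± 0.31, adjusted p 0.474, and 0.0273 without 1-week replicate 3).

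Of the 24 Wnt ligands and receptors, 3 lay apart above the controls and 3 below, beside 4.63% and 2.84% of all genes tested, and the median difference was -0.11. Wnt7b, a ligand of the canonical pathway in skin, was 11.01, 9.93 and 9.52 at 1 week and 9.14, 8.77 and 8.13 in control cells (1.47 ± 0.45, adjusted p 0.569). Wnt6 was 7.88, 8.09 and 7.42 against 6.99, 6.91 and 6.63 in control cells, and the receptor Fzd1 was 10.12, 10.22 and 10.05 against 9.56, 9.53 and 9.31 in control cells. The genes below the controls were Wnt4 (-0.87 ± 0.33), Wnt10a (-0.85 ± 0.26) and the receptor Fzd8 (-0.33 ± 0.21).

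In the BMP and TGF-beta pathway 13 of 20 genes were higher and the median difference was 0.23. Of the 20, 1 lay apart above the controls, a share near the 4.63% of all genes tested. Fst, which encodes follistatin, an antagonist of activin, was the only member with groups apart, at 10.08, 10.46 and 9.22 at 1 week and 8.51, 7.56 and 8.25 in control cells (1.81 ± 0.45, adjusted p 0.365). Both of its probe sets separated the groups. Tgfb3, Bmp6 and the receptor Bmpr1b had differences of 1.70, 1.24 and 1.12 with overlapping groups. Notch pathway genes had a median of -0.01, with 0 apart above the controls and 1 below, beside 4.63% and 2.84% of all genes tested. Among their 13 tested members the ligand Dll1 lay below the controls, with 8.08, 7.46 and 7.96 at 1 week and 8.97, 8.30 and 9.14 in control cells (-0.97 ± 0.35, adjusted p 0.747).

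Basal epidermal markers were at the high end of the signal in both groups. Keratin 5 (Krt5) was 14.21, 13.40 and 13.78 at 1 week and 14.23, 13.77 and 13.75 in control cells, and the epidermal master factor Trp63 was 12.58, 12.25 and 12.32 against 12.48, 12.25 and 12.27 in control cells. Within this list 1 of 13 genes was higher and 12 were lower, with a median difference of -0.14. Krt14, Itgb4 and Plec lay below the controls in every array, beside 2.84% of all genes tested. Krt14, the partner of keratin 5 and the source of the Cre promoter, was 13.95, 13.32 and 13.99 at 1 week and 14.21, 14.19 and 14.003 in control cells, nearly level between 1-week replicate 3 and control replicate 3. The hemidesmosome integrin Itgb4 was 9.70, 9.61 and 9.61 against 9.94, 10.68 and 10.48 in control cells (-0.73 ± 0.24, adjusted p 0.679). The linker plectin (Plec) differed by -0.26, the integrin Itga6 by -0.37 and the hemidesmosomal collagen Col17a1 by -0.46.

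Suprabasal differentiation genes, which belong to the layers above, had a median of -0.17, with 7 of 22 higher. Of the 22, 3 lay apart above the controls and 2 below, beside 4.63% and 2.84% of all genes tested. Klk7, a desquamation protease, was 8.95, 9.47 and 9.14 at 1 week and 8.22, 8.07 and 7.26 in control cells, and involucrin (Ivl) and Krt77 also lay apart above the controls, by 0.94 and 0.57. Tgm3, a crosslinking transglutaminase, lay below them, with 9.57, 8.29 and 9.93 against 10.11, 10.85 and 10.96 in control cells (-1.38 ± 0.50), as did Calml3 (-0.64). Krt1 and Krt10 overlapped and differed by -0.37 and -0.18. All 10 hair-type keratins had a difference below 0, with a median of -0.37, but none separated the groups. Krt36 was 11.39, 10.29 and 13.30 at 1 week and 13.22, 13.08 and 12.87 in control cells, and Krt84 was 10.94, 9.75 and 12.79 against 12.51, 12.92 and 12.30 in control cells. In both, 1-week replicate 3 was above the control array of its own number while replicates 1 and 2 were below all controls.

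Stress keratins and wound genes had a median of -0.17, with 1 of 16 apart above the controls, a share near the 4.63% of all genes tested, the cornified envelope protein Sprr1a (9.78, 9.24 and 8.75 at 1 week and 8.15, 8.04 and 7.88 in control cells). Immediate-early genes, which respond to cell dissociation among other stimuli, had a median of -0.04 over 17 genes and 0 apart. Their largest difference was that of Egr3 (1.17 ± 0.50), set by 1-week replicate 2 at 11.73.

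Most cell cycle genes had higher means at 1 week, and few separated the groups. All 21 tested mitosis genes had higher means at 1 week, with a median difference of 0.44 and a range of 0.24 to 0.62. The pair medians were 0.33, 0.45 and 0.63, so that here pair 3 had the largest median. The list's median was 0.77 without 1-week replicate 2, 0.27 without 1-week replicate 3 and 0.20 without control replicate 2. Top2a, Cenpa and Kif11 lay apart above the controls, beside 4.63% of all genes tested. Mki67, the proliferation marker, was 12.05, 11.24 and 11.78 at 1 week and 11.52, 10.98 and 11.36 in control cells, a difference of 0.40 ± 0.54 with an adjusted p of 1.00. Of the 23 DNA replication genes 20 were higher, with a median of 0.19 (-0.0016 and 0.44 without 1-week replicates 1 and 2, 0.38 and -0.021 without control replicates 1 and 2), and only Uhrf1, which keeps DNA methylation through replication, lay apart (10.21, 10.15 and 10.20 against 9.97, 9.79 and 9.69 in control cells). Genes of such lists are not independent, and a count of shared signs is no count of separate observations. All 14 tested inhibitors and p53 response genes were also higher, with a median of 0.24 and 0 apart, Cdkn1a by 0.47 ± 0.31. Ribosome biogenesis genes had a median of -0.15, with 12 of 15 lower. Nop2 alone lay apart below the controls (-0.32 ± 0.17), beside 2.84% of all genes tested.

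Sterol synthesis and uptake genes had a median of 0.47 over 16 genes, with pair medians of 0.44, 0.41 and 0.45. Without control replicate 3 the median was 0.31. Scarb1, described above, Cyp51, Insig1 and Fdft1 lay apart above the controls and none below, beside 4.63% and 2.84% of all genes tested. Cyp51, a demethylase of cholesterol synthesis, was 9.26, 8.98 and 9.04 at 1 week and 8.69, 8.32 and 8.42 in control cells (0.62 ± 0.26, adjusted p 0.950). Insig1, the sterol sensor that restrains the pathway, was 8.07, 8.64 and 8.37 against 7.55, 7.87 and 8.004 in control cells. Fdft1, squalene synthase, differed by 0.65 ± 0.28. The 3 pairs were closer to each other in this list than in the matrix list, and replicate 3 did not stand apart.

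**Figure D4:**
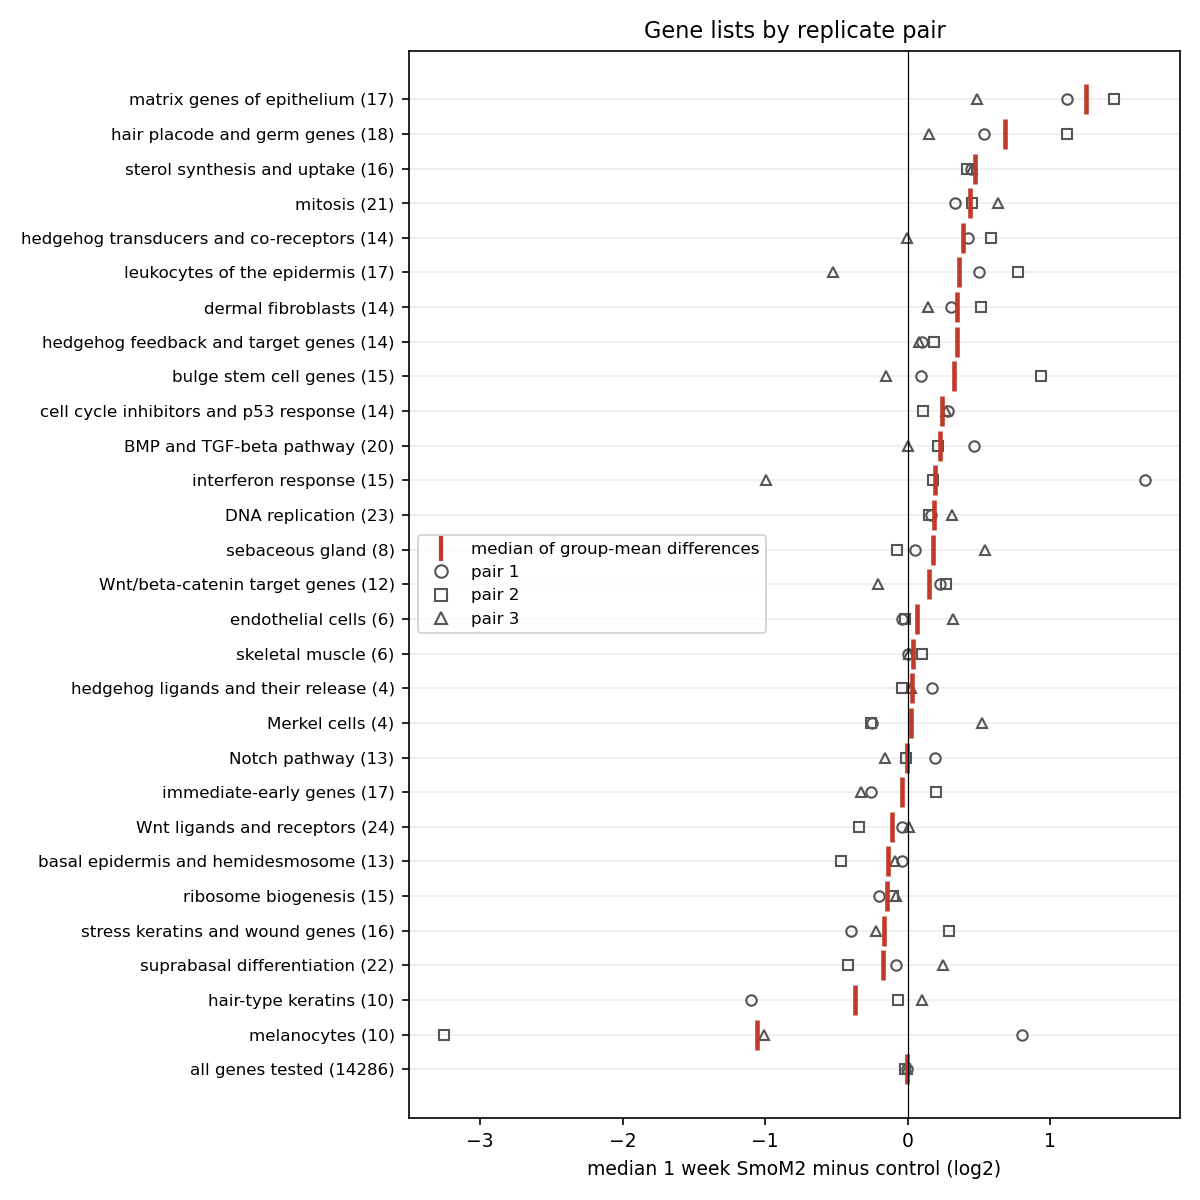
Median difference (log2, 1 week SmoM2 minus control) of each gene list, with the number of genes tested in brackets. The red bar is the median of the differences of group means, and the circle, square and triangle are the medians of pairs 1, 2 and 3. Sterol genes have nearly equal pairs, while the melanocyte and interferon lists have pairs on both sides of 0.

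Markers of other cells that a sort could carry differed mainly between arrays. All 10 melanocyte genes had a difference below 0 (median -1.06), yet the pair medians were 0.80, -3.25 and -1.01 and none separated the groups. Their summed log2 signal was 11.80, 10.14 and 10.20 at 1 week and 10.70, 12.92 and 11.37 in control cells, highest in control replicate 2. Among 17 leukocyte genes 14 were higher (median 0.36). Only Thy1 lay apart, below the controls, as did 2.84% of all genes tested. The summed log2 signal of the 17 genes was 10.59 to 11.86 at 1 week and 10.26 to 11.20 in control cells. The pair medians were 0.50, 0.77 and -0.52.

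Endothelial genes had a median of 0.07 over 6 tested. Vwf lay apart above the controls (0.68), with mean signals of 5.01 at 1 week and 4.33 in control cells. Cdh5, Tek, Tie1 and Emcn were below the 40th percentile, which was 4.88 to 5.01, on all 6 arrays. Merkel cell genes had a median of 0.02 over 4 tested, and Krt20, Atoh1, Sox2 and Rab3c were at that low level on all 6 arrays. Krt18 lay apart above the controls, with mean signals of 4.92 at 1 week and 4.44 in control cells. Sebaceous genes had a median of 0.18 over 8 tested, with Cidea apart above. Skeletal muscle genes had a median of 0.04 over 6 tested, with Tnni2 apart below (-0.72), and Myh4, Myh1, Myl1 and Tnnt3 were at the low level on all 6. Over all genes tested 4.63% lay apart above the controls and 2.84% below. The part of other cells in the results above was not tested.

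Of the genes with the largest positive differences outside the lists, Nrcam, a neuronal adhesion molecule, was 9.22, 11.13 and 5.999 at 1 week and 5.24, 5.57 and 4.94 in control cells (3.53 ± 1.10, adjusted p 0.573, and 0.0442 without 1-week replicate 3). Synpo, the actin-binding protein synaptopodin, was 10.49, 9.53 and 8.97 against 7.31, 5.54 and 7.19 in control cells (2.99 ± 0.72). Prss35, a serine protease-like protein, was 6.23, 9.03 and 5.12 against 3.71, 3.78 and 3.63 in control cells, and Atp6v1b1, a subunit of the vacuolar proton pump, was 7.88, 8.82 and 6.40 against 4.73, 4.57 and 5.09 in control cells. In each of the 4 genes all 1-week arrays lay above the controls, and 1-week replicate 3 was the lowest of them.

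Negative differences were smaller. Among the 14 most negative that the naming rule took, Stk33, a serine/threonine kinase, was 4.05, 3.70 and 4.41 at 1 week and 6.69, 6.76 and 4.58 in control cells, so that control replicate 3 stood with the 1-week arrays (-1.95 ± 0.46, adjusted p 0.343). Nrp1, a co-receptor for semaphorins and VEGF, was 5.63, 4.54 and 6.60 against 7.25, 7.89 and 6.88 in control cells (-1.75 ± 0.43, adjusted p 0.343, and 0.0343 without 1-week replicate 3). Tgm2, tissue transglutaminase, was 6.32, 5.81 and 7.04 against 8.93, 7.41 and 8.07 in control cells (-1.75 ± 0.45). All 6 of its probe sets were lower, and 3 separated the groups. Dlk2, a transmembrane protein of the Delta-like family, was 8.27, 7.55 and 8.25 at 1 week against 9.11, 9.03 and 9.10 in control cells (-1.06 ± 0.21, adjusted p 0.186). Klf9, a Krüppel-like factor that responds to glucocorticoids, was 10.08, 10.23 and 10.56 at 1 week and 11.17, 11.71 and 11.24 in control cells (-1.08 ± 0.26). The other 7 beside Myc and Ascl2 were Tent5b of the poly(A) polymerases, the proline-degrading Prodh, the endothelial matrix protein Mmrn1, the kinase Dmpk, the acid phosphatase Acp5, the focal adhesion protein Tns3 and the interleukin receptor Il17rb, with differences of -1.66 to -1.03.

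The levels at 1 week were set beside those of the other times in the same IFE cells. Gli1 averaged 5.54 in control cells, was 7.28 on the single array at 3 days, and averaged 9.48 at 1 week, 10.44 at 4 weeks (n = 3) and 9.78 at 10 weeks (n = 2). Ptch1 averaged 8.96, 9.77, 12.71, 13.05 and 12.57 in the same order. By 1 week both were thus nearer to their later means than to control. Between 4 weeks and 1 week, a contrast without the controls, limma called 0 genes (0%). An unadjusted p under 0.05 was found for 688 (4.82%), and no adjusted p was below 0.997. With the replicate block over the control, 1-week and 4-week arrays, limma also called 0 genes (0%), with 1838 at an unadjusted p under 0.05 (12.9%) and none below an adjusted p of 0.253. Without 1-week replicate 2, and without the block, it called 24 genes, 12 higher and 12 lower at 4 weeks, and without 4-week replicate 3 it called 1, Tmem267, which was lower. In that contrast Gli1 differed by 0.97 ± 0.54 (SE; 0.24 with the block, adjusted p 0.278) and Ptch1 by 0.34 ± 0.47 (0.31 with the block, adjusted p 0.649).

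Other genes had other courses, none of them past the test between 4 weeks and 1 week with or without the block. Lhx2 averaged 7.21 in control cells, was 7.90 at 3 days, and averaged 10.17 at 1 week, 11.69 at 4 weeks and 11.10 at 10 weeks, with 1.52 ± 0.68 between 4 weeks and 1 week. Dcn had its highest mean at 1 week, 12.37, and averaged 11.56 at 4 weeks. Krt36 averaged 13.05 in control cells, was 13.75 at 3 days, and averaged 11.66 at 1 week, 8.90 at 4 weeks and 8.02 at 10 weeks, and its difference between 4 weeks and 1 week was -2.76 ± 0.88 (adjusted p 0.997, limma, and 0.278 with the replicate block). Krt84 differed by -2.74 ± 0.74 in that contrast. The mitosis list, with a median of 0.44 above control at 1 week and 0.65 on the 3-day array, had one of -0.52 at 4 weeks, and Mki67 averaged 11.69 at 1 week against 10.94 at 4 weeks.

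**Figure D5:**
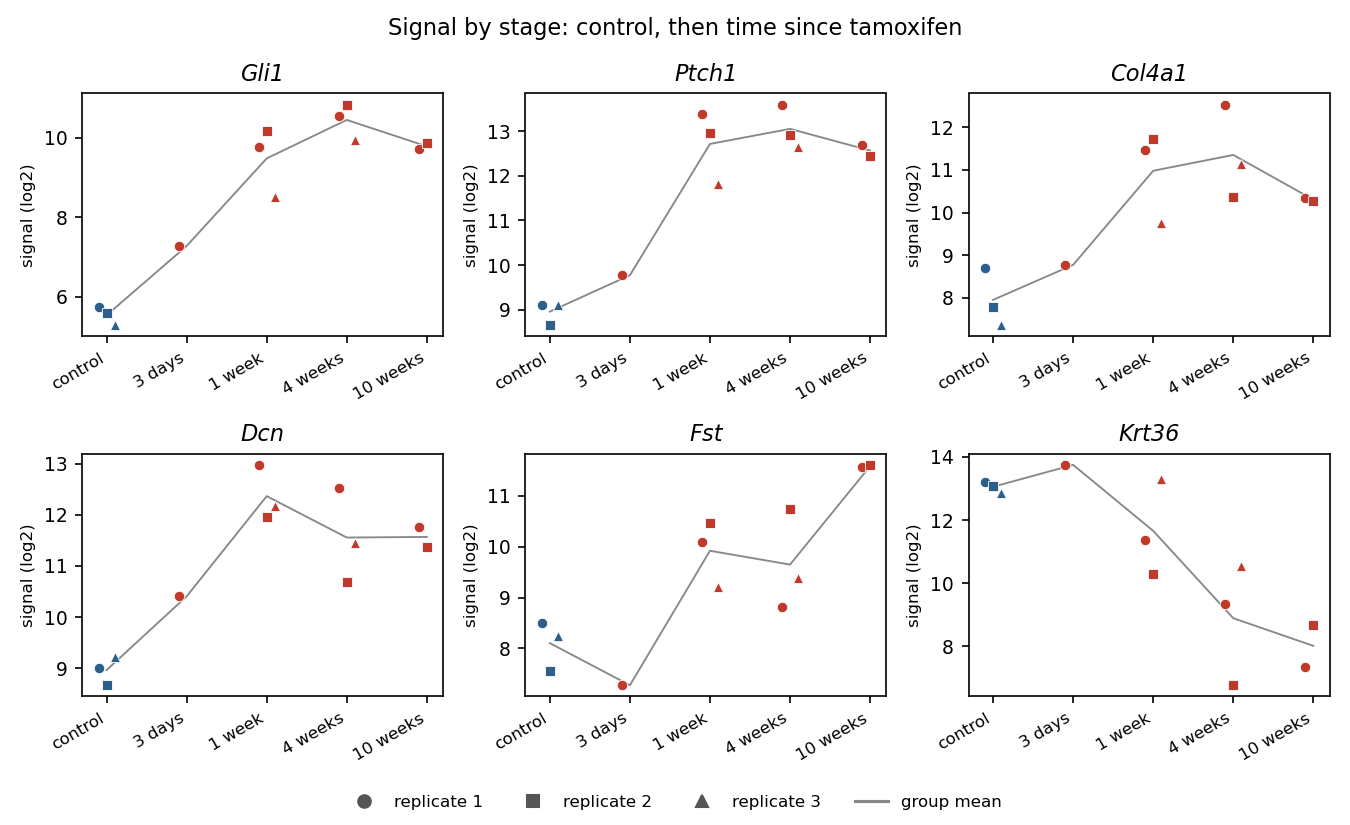
Signal (log2) of 6 genes in control arrays (blue) and in SmoM2 arrays (red) at 3 days (1 array), 1 week (3), 4 weeks (3) and 10 weeks (2), with a line through the group means. At 1 week the means of Gli1, Ptch1 and Col4a1 lie nearer to their later means than to control. Dcn has its highest mean at 1 week, Fst is highest at 10 weeks, and Krt36 declines in mean from 1 week on, with 1-week replicate 3 not below the controls.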

How the data were processed

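The authors deposited 1 table of log2 values for 45101 probe sets on 16 Affymetrix arrays, with values from 2.73 to 14.6. Per the submitters' processing notes R 2.14.0 was used. How signals were background corrected, normalized and summarised by the authors is not stated in these sources. The log2 scale is read from the range of the values, and the number of arrays limits the precision. Of the probe sets, 34958 had 1 gene in the platform annotation, 932 several and 9211 none, and 34754 matched the RefSeq gene table. For each of 18194 genes the probe set with the highest mean over the 16 arrays was used. A gene was tested if its signal passed the array's 40th percentile on at least 2 of the 16 arrays, which left 14286.

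No further normalization was applied. Group means over the 14 IFE arrays were fitted with limma 3.58.1 in R 4.3.3 (total degrees of freedom 11.6), and the contrast was 1 week minus control, with Benjamini-Hochberg adjustment over the genes tested and a threshold of 0.05. Beside the 2 groups compared, these arrays include SmoM2 cells at 3 days, 4 weeks and 10 weeks. They also include SmoM2 cells with beta-catenin loss of function at 4 weeks, a different genotype. The labels give an experiment number that 1-week, 4-week and control arrays share. Deviations from the group means correlated at 0.70, 0.46 and 0.34 between 1-week and control arrays of the same number, and each array correlated best with its own number, so the number was taken as pairing the arrays and the fit with it as a block (9 arrays) stands beside the main result.

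Members, gene lists and rules were chosen with earlier results of these data known, so lists are described by counts and medians and were given no test. Named genes were the 14 largest differences each way among genes with groups apart and an unadjusted p under 0.01, all tested members of the hedgehog target and transducer lists, up to 4 members of each other list by lowest p, a fixed set, and all genes called with the block. Other genes named, such as the remaining members behind small counts, the 7 at the lowest adjusted p and the matrix, fibroblast and placode genes given for comparison, were chosen after their values were seen. The Y-linked list served to describe the arrays. On simulated data of 14286 genes with 50 genes changed at each size, the fit of this contrast recovered 32%, 86%, 96% and 100% of changes of 1, 2, 3 and 4 log2 units, and the block fit 10%, 92%, 98% and 100%. The simulation drew independent normal noise, with no effect shared by arrays of the same number and no outlying array. These rates therefore need not hold for the arrays compared here. The alternatives tried were the block in 3 forms, the 6 arrays alone, 2 other filters, quantile normalization, median centring, 2 other uses of probe sets, a variance trend, array weights, Y-linked signal as a covariate and leaving out each array. For 4 weeks minus 1 week the same kinds of alternative, with the block and leaving out each array, were added after seeing the data. Some list genes were not analysed here.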

Additional observations from a re-analysis of the deposited data

How the results depend on the processing

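The count of genes called at an adjusted p under 0.05 in limma was 0. It was 9 with the replicate block over the control, 1-week and 4-week arrays, 11 with the number as a random replicate block (consensus correlation 0.255, 13 arrays, 5 of the 9 genes shared), 2 with median centring (Gli1 and Ptch1) and 3 with the replicate block without number 3, an alternative chosen after seeing the data (Gli1, Gli2 and Ptch1). With the replicate block over the 6 arrays alone it was 0, and it was also 0 under the other alternatives that kept all arrays. Leaving out 1 array gave 0 to 50 calls. The 260 genes apart and at least 2-fold (218 higher and 42 lower) became 222 to 634 without 1 array, with 634 (399 higher and 235 lower) without 1-week replicate 3 and 447 (318 and 129) without control replicate 1. They became 679 (453 and 226) with the replicate block without number 3, and fewer arrays make such a count easier to meet. Between 4 weeks and 1 week the count of 0 was also 0 under the 10 alternatives that kept all arrays of both groups, replicate blocks included, and 0 to 24 without 1 array, all chosen after seeing the data. Of 135 genes followed, 16 turned sign under at least 1 alternative, with differences in the reported fit from -0.37 (Krt1) to 0.49 (Cd34). Foxf1 was -0.0075 with quantile normalization, -0.0091 with median centring and -0.038 with the block without number 3, where Ccnd1 was 0.049 and Cd34 was -0.00046. Sufu was -0.0017 and Trp63 -0.11 with the mean over probe sets, and Trp63 was -0.013 and Cdk6 -0.0026 with Y-linked signal as a covariate. Over fits without 1 array the values ran from -0.026 to 0.044 for Foxf1, -0.049 to 0.12 for Trp63, -0.028 to 0.19 for Cdk6, -0.36 to 0.35 for Ccnd1, -0.011 to 0.062 for Foxl1, -0.47 to 0.13 for Gli3, -0.67 to 0.032 for Cdon, -0.58 to 0.10 for Col3a1, -0.63 to 0.0070 for Krt1, -0.34 to 0.11 for Krt10, -0.32 to 0.081 for Krt5, -0.12 to 0.85 for Cd34, -0.21 to 0.12 for Pdgfra, -0.46 to 0.12 for Shh and -0.38 to 0.042 for Spop. The cause of these changes was not tested. The median of the matrix list stayed between 0.91 and 1.54, that of the sterol list between 0.31 and 0.51 and that of the placode list between 0.36 and 0.84 under the 20 alternatives, while that of the hedgehog target list ran from 0.056 to 0.60, of mitosis from 0.20 to 0.77, of fibroblasts from 0.23 to 0.82 and of DNA replication from -0.021 to 0.44.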

Other observations

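Without 1-week replicate 3, the limma calls at an adjusted p under 0.05 included genes outside all lists, named here after their values were seen. In each of those below, 1-week replicate 3 stood close to the controls while replicates 1 and 2 lay on the same side of them. Taking genes from calls made without that array favours this shape, so the shape is no separate observation. The deiodinase Dio2, which activates thyroid hormone, was 9.25, 7.92 and 4.95 at 1 week and 5.01, 4.51 and 4.22 in control cells. Tgm5, a transglutaminase of the epidermal envelope, was 9.19, 9.50 and 6.09 against 5.86, 5.76 and 5.60 in control cells, a difference of 3.60 ± 0.30 (SE) without replicate 3. Edn1, which encodes endothelin 1, was 7.93, 8.56 and 6.17 against 5.59, 4.99 and 5.72 in control cells, and the cadherin Cdh11 was 6.97, 8.59 and 4.72 against 3.78, 4.35 and 4.77 in control cells. On the lower side, Ogn, a small matrix proteoglycan, was 4.63, 3.45 and 7.93 at 1 week and 7.61, 7.96 and 7.61 in control cells. Selenbp1, a selenium-binding protein, was 9.21, 7.40 and 11.80 against 11.56, 11.70 and 11.29 in control cells. With all 3 arrays of the 1-week group none of these 6 genes was called, with adjusted p between 0.343 and 0.847.

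The interferon response genes differed between arrays rather than between groups. Their mean log2 signal over 15 genes was 7.15, 5.56 and 5.33 in the 1-week arrays and 5.41, 5.28 and 6.52 in the control arrays, so that 1-week replicate 1 and control replicate 3 were the high ones. The pair medians were 1.66, 0.17 and -0.99, and the median of the differences of group means was 0.19.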
